A study of Mus musculus with 18 samples.

Results

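The effect of nicotinamide (NAM) on RNA levels of cultured mouse kidney tubule cells was measured as an average over cells without and cells with transforming growth factor β (TGFβ). It is the mean of 2 differences on the log2 scale, NAM minus control and TGFβ with NAM minus TGFβ. It rests on 12 of the 18 libraries of the series, 6 with NAM and 6 without. The cells are im-TEC, tubular epithelial cells that were conditionally immortalized with the SV40 large T antigen. All groups shared 7 days at 37 °C without interferon-γ, which lowers the activity of that antigen, before seeding. Every group then had a treatment time of 48 h in 6-well plates. The 4 groups of 3 libraries were untreated control, NAM at 1 mM, TGFβ at 10 ng/mL, and TGFβ at 10 ng/mL with NAM at 1 mM. The other 6 libraries received S-adenosyl methionine with or without TGFβ and take no part here. Nothing in the labels says that the 3 libraries of a group came from separate cultures, so p-values measure the spread between these libraries, which may be technical.

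NAM is the amide form of vitamin B3. The enzyme NAMPT recycles it into the cofactor NAD, and NAM is also a product and an inhibitor of the sirtuins and of poly(ADP-ribose) polymerases, which consume NAD. Nicotinamide N-methyltransferase (NNMT) removes NAM by adding a methyl group taken from S-adenosyl methionine. The title of the series places this enzyme in tubular senescence and fibrosis, and TGFβ is the main profibrotic cytokine of the kidney.

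Reads in genes numbered 4171170 to 7717626 per library. On the second principal component (9.42% of the variance), TGFβ+NAM replicate 1 (-42.3) and NAM replicate 3 (-30.2) were far from the remaining 10 libraries (1.06 to 17.3). These libraries also had the lowest shares of reads outside genes, 22.8% in TGFβ+NAM replicate 1 and 23.9% in NAM replicate 3, against 24.9% to 27.3% in the others. Both are NAM libraries, 1 in each background, so calls and medians that they move are also given without them (10 libraries). TGFβ+NAM replicate 3 stood apart on the third component (6.99%), at 39.3 against -21.0 to 6.49. On this component the NAM libraries also lay above their controls in both backgrounds, without overlap. Without TGFβ the NAM libraries were at 3.72 to 6.02, and all control libraries had negative values. With TGFβ the lowest TGFβ+NAM library was at -0.973 and the highest TGFβ library at -9.34. Of the tubule markers, Pax8, Pax2, Cdh16, Krt8, Lrp2 and the water channel Aqp1 (626 CPM on average, from 81.8 to 1352) were expressed. Epcam, Hnf4a, Slc34a1, Slc22a6 and Umod had no read in any of the 12 libraries. Some markers of other cell types had no read either, namely Pdgfra, Lum and Thy1 of fibroblasts, Pecam1, Cdh5 and Kdr of endothelium, Nphs1 of podocytes and Adgre1, Itgam, Cd3e and Cd79a of leukocytes. Other markers of these types were expressed. Col1a1 of fibroblasts ranged from 3.01 to 111 CPM, and the mean was 65.0, 47.9 and 10.0 CPM for Csf1r, Cd74 and Cd68 of immune cells and 245 and 69.8 for Synpo and Podxl of podocytes. Their part in the results was not tested. The summed level of the proximal tubule marker list was 1076 to 1193 CPM in control and 1319 to 1455 with NAM. With TGFβ it was 154 to 194 CPM, and 157 to 177 with both. The sum of the distal tubule and collecting duct list was 47.2 to 62.9 CPM in control and 47.8 to 56.9 with NAM. With TGFβ that sum was 29.9 to 32.4 CPM, and 18.2 to 24.6 with both. No tested member of either list was called. CPM are the counts of a gene relative to the reads in genes of its library, adjusted by the TMM factor.

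Averaged over both backgrounds, 37 genes differed with NAM out of 13163 tested (0.281%), 19 higher (0.144%) and 18 lower (0.137%), at an edgeR quasi-likelihood adjusted p under 0.05. The genes that rose included the immediate early factors Egr1, Junb and Ier5, the matricellular genes Ccn1, Ccn2 and Ccn4, the contractile genes Acta2 and Tnnt2, and Txnip, an inhibitor of thioredoxin. The genes that fell included the alcohol dehydrogenase Adh7, the glutathione synthesis gene Gclm, the transporters Slc4a4 and Slc16a1, the ketone body enzyme Oxct1 and the matrix genes Postn and Npnt. The changes were small. The median log2 change of the genes that rose was 0.38 (1.30-fold), and that of the genes that fell was -0.50 (0.707-fold). An absolute log2 change of at least 1 was seen in 3 genes, S100g, Adora1 and Mustn1, and one under 0.5 in 23. All but Mustn1 averaged at least 5 CPM.

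The count of 37 moved with single libraries. Without control replicate 1, 2 or 3 it was 8, 12 and 5. Without NAM replicate 1, 2 or 3 it was 23, 33 and 19. Without TGFβ replicate 1, 2 or 3 it was 16, 16 and 24, and without TGFβ+NAM replicate 1, 2 or 3 it was 50, 29 and 37. Adh7, Egr1, Txnip, S100g and Slc4a4 passed in all 12 of these fits, and no called gene changed sign in any alternative. Without the 2 libraries that stood apart, 66 of 13405 genes passed (0.492%), 29 higher (0.216%) and 37 lower (0.276%). Of the 37 genes, 31 passed again, and the other 6 were Poglut1, Nbdy, Mustn1, Irs2, Psap and Ddx60.

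**Figure D1:**
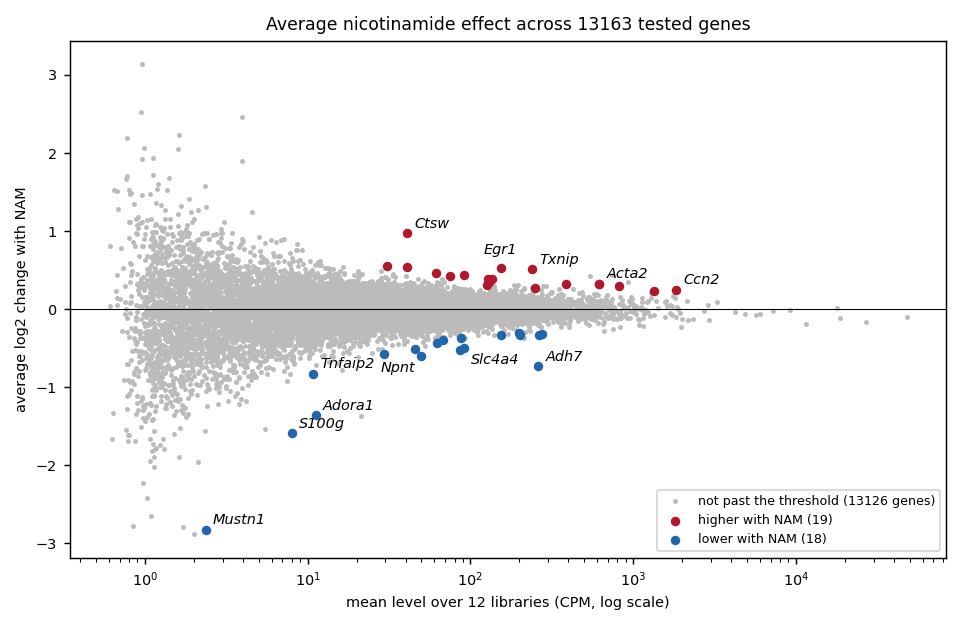
Average log2 change with NAM (vertical axis) against the mean level over 12 libraries in CPM (horizontal axis, log scale) for 13163 tested genes. Red points are the 19 genes that passed the threshold with a higher level with NAM, blue points the 18 with a lower level, and grey points all others. Most called genes have an absolute log2 change under 0.5, and Adh7 lies apart from genes of similar level.

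Each background taken alone gave fewer calls. NAM against control gave 1 of 13163 genes (0.0076%), Adh7, and 760 genes had an unadjusted p under 0.05 (5.77%). TGFβ+NAM against TGFβ gave 9 genes (0.0684%), of which 3 rose (0.0228%: Egr1, Txnip and Ccn2) and 6 fell (0.0456%: Adh7, S100g, Npnt, Adora1, Lgals3 and Rbm47). This count was 0 without TGFβ+NAM replicate 2, 2 without TGFβ replicate 3, 3 without TGFβ+NAM replicate 3 and 4 without TGFβ replicate 2. It was 5 without TGFβ replicate 1, NAM replicate 1 or any control library, and 15 without NAM replicate 3 or TGFβ+NAM replicate 1. Of these 9, only Rbm47, an RNA-binding protein, missed the threshold in the average, with a log2 change of -0.33 ± 0.08 (adjusted p = 0.056), and it passed without the 2 libraries that stood apart (-0.36 ± 0.08, adjusted p = 0.0121). In the average, 1319 genes had an unadjusted p under 0.05 (10.0%). The 2 backgrounds share no library. All 37 called genes had the same sign in both, compared with 58.1% of all tested genes, but a call on the mean of both favors genes of equal sign. In 30 of them the NAM libraries lay wholly above or wholly below their controls in both backgrounds, whereas 219 of all 13163 genes (1.66%) did so in the same direction. The rule of the call used these same libraries, so the 37 of equal sign and the 30 are a description.

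Across all tested genes, the log2 changes of the 2 backgrounds were weakly related, with a Pearson r of 0.11 and a Spearman rho of 0.17 over 13163 genes, which are not independent replicates. Among the 4186 genes of at least 50 CPM the r was 0.39 with 12 libraries and 0.18 in the 10 that remain without the 2 that stood apart. Of the 760 genes with an unadjusted p under 0.05 in NAM against control, 550 (72.4%) had the same sign in TGFβ+NAM against TGFβ, compared with 58.1% of all genes. Without the 2 libraries, that was 440 of 707 genes (62.2%), compared with 53.5% of all genes.

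Adh7 (ENSMUSG00000055301) encodes an alcohol dehydrogenase that uses NAD and oxidizes retinol and ethanol. It showed the smallest p of all genes. Its levels in CPM were 515, 459.7 and 472 in control, 265, 271 and 289.5 with NAM, 165, 149 and 214 with TGFβ and 127, 110.3 and 99.6 with both. The NAM libraries lay below their controls in both backgrounds without overlap. The average log2 change was -0.73 ± 0.08, or 0.604-fold (adjusted p = 1.88e-06), with -0.81 ± 0.11 in NAM against control (adjusted p = 0.000179) and -0.64 ± 0.11 in TGFβ+NAM against TGFβ (adjusted p = 0.0112). It passed in every alternative and every fit that left out 1 library, with -0.79 ± 0.07 in the 10 libraries. The gene lies at chr3:138217760-138233382 of GRCm38 (GENCODE M21) and overlaps the unnamed gene 0610031O16Rik on the other strand. The strand setting of the counting was not given in the sources used here, so reads of overlapping genes cannot be told apart.

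In the list of retinoid genes and alcohol or aldehyde dehydrogenases, Adh7 was the only 1 of 24 tested members called. Of all tested genes, 0.137% passed with a lower level. The median log2 change was -0.02, against 0.00 over all tested genes, and -0.10 in the 10 libraries, against -0.01. At an unadjusted p under 0.05, 6 members were lower and 1 higher (29.2%, against 10.0% of all tested genes). The retinoic acid receptor Rarg (-0.37 ± 0.11, adjusted p = 0.239) and the aldehyde dehydrogenase Aldh2 (-0.35 ± 0.11, adjusted p = 0.248) had the next smallest p. Without the 2 libraries their values were -0.19 and -0.18.

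Gclm (ENSMUSG00000028124), the modifier subunit of the enzyme that limits glutathione synthesis, fell. Its levels in CPM were 398, 382 and 376 in control, 306, 290.4 and 287 with NAM, 248, 244 and 203 with TGFβ and 194, 186 and 206 with both. NAM libraries lay below controls in the cells without TGFβ, and with TGFβ 1 of 3 NAM libraries reached the range of the TGFβ libraries. The average log2 change was -0.32 ± 0.06 (adjusted p = 0.0194). It was called in 7 of the 12 fits that each left out 1 library, with the largest adjusted p (0.0881) without control replicate 1. It was the only 1 of 37 tested genes to pass in the list of antioxidant genes and genes around the antioxidant factor NRF2 (median -0.03). Of all tested genes, 0.137% passed with a lower level. In the 10 libraries the glutathione transferase Gstm1 also passed (-0.30 ± 0.07, adjusted p = 0.0268). Gclc, the catalytic subunit of the same enzyme, had -0.26 ± 0.07 (adjusted p = 0.126), and the carbonyl reductase Cbr1 -0.31 ± 0.07 (adjusted p = 0.0569).

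The stretches upstream of 4 called genes are shown as examples of 4 roles among the calls, which are retinol oxidation (Adh7), glutathione synthesis (Gclm), redox control (Txnip) and matricellular proteins (Ccn1). They are RefSeq promoter sequences of GRCm38.p6, up to 250 bases before the start and none of the annotated transcript, and capitals mark matches on either strand to the elements searched.
Adh7, chr3:138217523-138217759, plus strand: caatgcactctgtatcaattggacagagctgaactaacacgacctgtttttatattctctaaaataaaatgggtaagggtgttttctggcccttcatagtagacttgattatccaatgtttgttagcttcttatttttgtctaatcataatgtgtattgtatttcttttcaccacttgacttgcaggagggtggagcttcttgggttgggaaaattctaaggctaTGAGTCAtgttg
Gclm, chr3:122245307-122245556, plus strand: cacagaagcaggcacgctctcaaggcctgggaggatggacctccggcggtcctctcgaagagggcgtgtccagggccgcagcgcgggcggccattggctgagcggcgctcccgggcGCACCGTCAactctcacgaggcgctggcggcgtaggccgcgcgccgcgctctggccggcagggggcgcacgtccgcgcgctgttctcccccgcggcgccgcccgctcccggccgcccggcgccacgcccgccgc
Txnip, chr3:96557707-96557956, plus strand: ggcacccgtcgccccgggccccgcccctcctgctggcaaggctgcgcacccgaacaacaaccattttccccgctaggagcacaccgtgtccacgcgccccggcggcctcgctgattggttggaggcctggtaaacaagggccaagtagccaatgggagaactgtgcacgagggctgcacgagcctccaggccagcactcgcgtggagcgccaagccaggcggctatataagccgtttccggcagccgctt
Ccn1, chr3:145649986-145650235, minus strand: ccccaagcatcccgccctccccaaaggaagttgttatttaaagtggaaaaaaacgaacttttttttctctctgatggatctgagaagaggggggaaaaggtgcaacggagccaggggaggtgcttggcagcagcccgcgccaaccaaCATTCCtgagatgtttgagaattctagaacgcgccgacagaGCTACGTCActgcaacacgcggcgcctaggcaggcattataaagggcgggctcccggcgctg
The capitals in Adh7 match the AP-1 element TGANTCA, those in Gclm match the antioxidant element TGACNNNGC on the opposite strand, and those in Ccn1 match the TEAD element GGAATG and the antioxidant element, both on the opposite strand. No searched element was found in the Txnip stretch. Of the 37 called genes, 30 were matched to a promoter in that table, 13 of the 19 that rose and 17 of the 18 that fell. Ccn2 was among those not matched. The comparison was 9168 tested genes. The antioxidant element was in 9 of the 30 (3 rose, 6 fell) and in 12.2% of all. The TEAD element was in 6 of the 30 (5 rose, 1 fell) and in 10.6% of all. The AP-1 element was in 3 of the 30 (1 rose, 2 fell) and in 4.13% of all, and the E-box CACGTG in 3 (all fell) and in 8.58%. The SMAD element GTCTAGAC (0.218% of all) and the CArG box (1.18%) were in none of the 30. AP-1, the SMAD factors and the TEAD partners of YAP are transcription factors of the early, TGFβ and matricellular responses. A match is only a run of letters in this window.

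Egr1 (ENSMUSG00000038418), a zinc finger transcription factor induced within minutes by growth factors, rose. Its levels in CPM were 209, 208 and 211 in control, 265, 282 and 298 with NAM, 57.1, 50.2 and 43.2 with TGFβ and 83.8, 78.8 and 69.8 with both. All 3 NAM libraries lay above all 3 controls in both backgrounds. The average log2 change was 0.52 ± 0.07, or 1.44-fold (adjusted p = 0.000325), with 0.43 ± 0.10 without TGFβ and 0.62 ± 0.11 with it, and it passed in every alternative.

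Junb, a subunit of AP-1, and Ier5, an immediate early response gene, rose by less. Junb levels in CPM were 105, 102 and 99.5 in control, 125, 123 and 123 with NAM, 122, 134 and 116 with TGFβ and 153, 145 and 172 with both, again without overlap in either background. Its average log2 change was 0.31 ± 0.07 (adjusted p = 0.0392). Ier5 levels in CPM were 188, 194 and 199 in control, 238, 230.4 and 244 with NAM, 264, 252 and 264 with TGFβ and 289, 315 and 319.7 with both, with a log2 change of 0.27 ± 0.06 (adjusted p = 0.0367). Both calls were near the threshold. Junb passed in 2 and Ier5 in 1 of the 12 fits that each left out 1 library, with the largest adjusted p, 0.16 without control replicate 3 and 0.151 without control replicate 1. Junb overlaps Prdx2, a peroxiredoxin, on the other strand.

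Of 29 tested immediate early genes, 3 rose and none fell, and 26 had a positive sign (median 0.16). The next by p were the AP-1 subunit Fosb (1.25 ± 0.35, adjusted p = 0.154) and the nuclear receptor Nr4a1 (0.76 ± 0.25, adjusted p = 0.266), which did not pass. Across all 13163 tested genes, 19 passed with a higher level (0.144%) and 6640 had a positive sign.

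Ccn2, Ccn1 and Ccn4 encode matricellular proteins of the CCN family, of which Ccn2 is the connective tissue growth factor, a classic TGFβ target. Ccn2 (ENSMUSG00000019997) levels in CPM were 472, 492 and 474 in control, 509, 528 and 526 with NAM, 2767, 2809 and 2652 with TGFβ and 3363, 3704 and 3655 with both. The NAM libraries lay above their controls in both backgrounds, with the larger difference under TGFβ. The average log2 change was 0.25 ± 0.05 (adjusted p = 0.0194), with 0.12 ± 0.07 without TGFβ and 0.38 ± 0.07 with it (adjusted p = 0.0198). The unadjusted interaction p was 0.0145 (adjusted 1).

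Ccn4 (ENSMUSG00000005124), a Wnt-induced member of the family, had levels in CPM of 203, 209 and 182 in control, 237, 259.6 and 261 with NAM, 886, 889 and 940.1 with TGFβ and 1214, 1097 and 1040.0 with both. It rose by a log2 change of 0.33 ± 0.06 (adjusted p = 0.00988), and its libraries did not overlap in either background. The call was lost in 1 of the 12 fits, without control replicate 3 (adjusted p = 0.0666). Ccn1 (ENSMUSG00000028195) levels in CPM were 1169.6, 1197 and 1196 in control, 1261, 1284 and 1359 with NAM, 1314, 1297 and 1238 with TGFβ and 1661, 1580.3 and 1599.7 with both, with a log2 change of 0.23 ± 0.05 (adjusted p = 0.0356), and it passed in 2 of the 12 fits. Ccn2 passed in 8, with the largest adjusted p (0.0912) without control replicate 1, and that of Ccn1 was 0.148, also without control replicate 1.

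Ccn1, Ccn2 and Junb were the 3 of 17 tested TGFβ and SMAD targets that passed, all higher (median 0.17, and 0.10 in the 10 libraries, where 3 also passed). Ccn1 and Ccn2 were also the 2 of 17 tested YAP targets that passed (median 0.09). Over all tested genes, 19 of 13163 passed with a higher level (0.144%). Junb is also 1 of the 3 immediate early calls, so some calls count in more than 1 list.

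**Figure D2:**
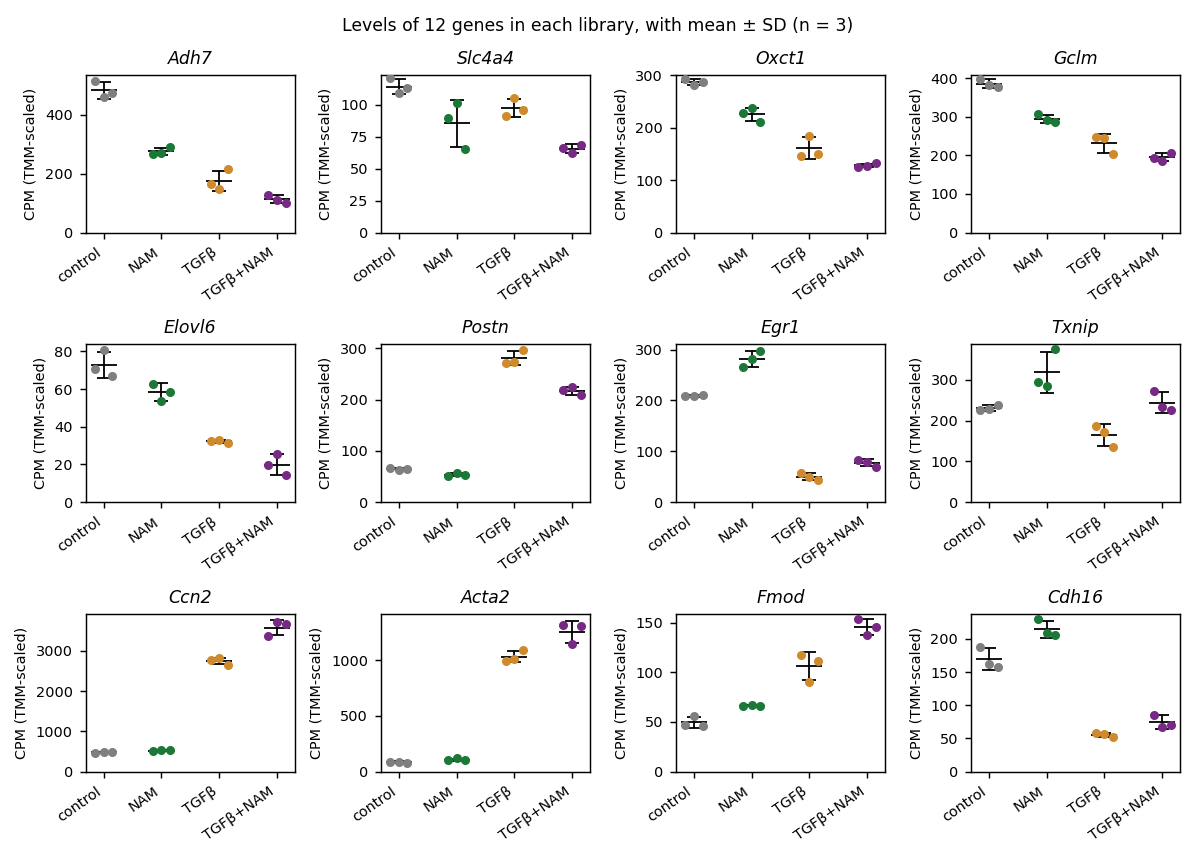
Level in CPM of 12 called genes in each of the 12 libraries (points), by group on the horizontal axis, with the group mean and SD as bars, each vertical axis starting at 0. In the top row and for Elovl6 and Postn the NAM groups lie lower than their controls, and for Egr1, Txnip, Ccn2, Acta2, Fmod and Cdh16 higher.

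Acta2 (ENSMUSG00000035783), smooth muscle actin, marks contractile myofibroblasts. Its levels in CPM were 89.1, 90.1 and 72.7 in control, 102, 119 and 104 with NAM, 992, 1015 and 1091 with TGFβ and 1319, 1144 and 1311 with both. NAM libraries lay above controls in both backgrounds, and the log2 change was 0.33 ± 0.07 (adjusted p = 0.0194). It passed in 7 of the 12 fits, and without control replicate 3 the adjusted p was 0.127.

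Tnnt2, the cardiac form of troponin T, rose by 0.34 ± 0.08 (adjusted p = 0.0476), from 38.6 ± 3.79 to 48.7 ± 5.46 CPM (mean ± SD, n = 3) without TGFβ and from 190.3 ± 22.1 to 242 ± 12.7 with it. S100a4, a calcium-binding protein used as a fibroblast marker, rose by 0.32 ± 0.06 (adjusted p = 0.0213), with 0.23 ± 0.06 in the 10 libraries. Tnnt2 passed in 2 and S100a4 in 6 of the 12 fits, with the largest adjusted p, 0.21 without control replicate 3 and 0.117 without control replicate 1.

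Of 24 tested mesenchymal and cytoskeletal genes, Acta2 and S100a4 rose and none fell (median 0.05). Over all tested genes, 0.144% rose and 0.137% fell. Calponin, Cnn1, was just outside the threshold (0.42 ± 0.10, adjusted p = 0.056), and without the 2 libraries 4 members passed, all higher. The summed level of the fibroblast marker list was 3.30 to 7.13 CPM in control, 5.39 to 7.13 with NAM, 109.5 to 114 with TGFβ and 76.7 to 102 with both, with 2 of its 8 genes tested and none called. This sum is mostly Col1a1, with 3466 reads over the 12 libraries, and the next gene, Pdgfrb, had 96.

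Of the called genes that encode matrix proteins or their proteases, Fmod and Mmp2 rose and Postn and Npnt fell. Fmod (ENSMUSG00000041559), a collagen-binding proteoglycan, had levels in CPM of 46.5, 55.7 and 46.2 in control, 66.3, 67.1 and 66.2 with NAM, 117, 90.0 and 111 with TGFβ and 154, 138 and 145 with both, without overlap in either background. It rose by 0.44 ± 0.08 (adjusted p = 0.00988) and lost the call without control replicate 1 or control replicate 3, with adjusted p up to 0.0579. Mmp2, a gelatinase, had levels in CPM of 79.8, 98.4 and 84.4 in control, 118, 118 and 127 with NAM, 152, 138 and 156 with TGFβ and 224, 165 and 167 with both. It rose by 0.39 ± 0.08 (adjusted p = 0.0194), and in TGFβ-treated cells the highest value was that of TGFβ+NAM replicate 1. In the 10 libraries the change of Mmp2 was 0.29 ± 0.07 (adjusted p = 0.03), and without control replicate 1 its adjusted p was 0.115.

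Postn (ENSMUSG00000027750), periostin, fell. Its levels in CPM were 66.4, 63.4 and 65.4 in control, 50.9, 57.4 and 51.9 with NAM, 271, 274 and 296 with TGFβ and 219, 223 and 208 with both, without overlap in either background. The log2 change was -0.33 ± 0.07 (adjusted p = 0.0194), with -0.28 ± 0.10 and -0.37 ± 0.09 in the single backgrounds, and without control replicate 1 the adjusted p was 0.0881. Npnt (ENSMUSG00000040998), nephronectin, a ligand of an integrin needed for kidney development, had levels in CPM of 73.2, 71.7 and 79.8 in control, 83.7, 62.7 and 56.2 with NAM, 34.1, 35.9 and 42.8 with TGFβ and 16.6, 15.7 and 22.2 with both. The groups overlapped without TGFβ and stood apart with it. The average log2 change was -0.60 ± 0.11 (adjusted p = 0.011), made up of -0.15 ± 0.14 without TGFβ and -1.04 ± 0.17 with it. The call was lost without control replicate 3 (adjusted p = 0.0541).

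Of the 32 tested genes of the matrix list, which does not hold Fmod or Npnt, Mmp2 rose and Postn fell, and 16 had a positive sign (median 0.00). The shares over all tested genes were 0.144% higher and 0.137% lower. In the 10 libraries 2 members fell, the second being Spp1, osteopontin. The fibrillar collagen gene Col1a1 had -0.10 ± 0.14 (adjusted p = 0.864) and fibronectin, Fn1, 0.12 ± 0.05 (adjusted p = 0.431). Thrombospondin, Thbs1, had 0.43 ± 0.12 (adjusted p = 0.16), with levels in CPM of 458, 484 and 508 in control, 531, 516 and 1009.8 with NAM, 819.7, 725 and 801 with TGFβ and 1384, 805 and 818 with both. The highest level of Thbs1 in each background was in the library that stood apart, and without those 2 libraries its change was 0.08 ± 0.05.

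Txnip (ENSMUSG00000038393), which binds thioredoxin and limits glucose uptake, rose. Its levels in CPM were 225, 227 and 238 in control, 295, 284 and 375 with NAM, 187, 173 and 134 with TGFβ and 273, 232 and 226 with both. The NAM libraries lay above their controls in both backgrounds, with the highest value of each in the library that stood apart. The log2 change was 0.51 ± 0.08, or 1.43-fold (adjusted p = 0.00141), and 0.40 ± 0.07 in the 10 libraries (adjusted p = 0.000292). It overlaps the unnamed gene Gm15441 on the other strand.

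The transporters Slc4a4 and Slc16a1 and the ketone body enzyme Oxct1 fell, and no member of the lists of tubule transport or fuel oxidation passed. Slc4a4 (ENSMUSG00000060961), the sodium bicarbonate cotransporter of the proximal tubule, had levels in CPM of 121, 109 and 113 in control, 89.5, 102 and 65.7 with NAM, 91.2, 106 and 96.1 with TGFβ and 66.4, 61.9 and 68.9 with both. NAM libraries lay below their controls in both backgrounds, lowest in NAM replicate 3 without TGFβ. The log2 change was -0.49 ± 0.09, or 0.710-fold (adjusted p = 0.00852), and -0.42 ± 0.08 in the 10 libraries. Oxct1 (ENSMUSG00000022186), which activates ketone bodies for oxidation, had levels in CPM of 293, 282 and 286 in control, 229, 237 and 212 with NAM, 147, 185 and 150.1 with TGFβ and 126, 128 and 132 with both and fell by a log2 change of -0.34 ± 0.07 (adjusted p = 0.0194). Slc16a1, the lactate and ketone body carrier MCT1, fell from 93.2 ± 7.91 to 75.7 ± 4.38 CPM without TGFβ and from 59.1 ± 5.91 to 41.9 ± 0.514 with it (log2 -0.40 ± 0.08, adjusted p = 0.0213). Oxct1 passed in 8 and Slc16a1 in 5 of the 12 fits, with the largest adjusted p, 0.0881 and 0.117, both without control replicate 1.

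Elovl6 (ENSMUSG00000041220), an elongase of saturated fatty acids, had levels in CPM of 70.7, 80.6 and 67.1 in control, 62.8, 53.5 and 58.6 with NAM, 32.4, 32.9 and 31.5 with TGFβ and 19.6, 25.4 and 14.6 with both, without overlap in either background. It fell by -0.51 ± 0.11 (adjusted p = 0.0262). It was the only 1 of 15 tested fatty acid synthesis genes to pass, with a list median of 0.03. Of all tested genes, 0.137% passed with a lower level. Them6, a member of a thioesterase family, fell by -0.52 ± 0.11 (adjusted p = 0.0194), and Irs2, an adaptor of the insulin receptor, by -0.43 ± 0.09 (adjusted p = 0.0249). Irs2 did not pass without the 2 libraries (-0.33 ± 0.09, adjusted p = 0.0775). Elovl6 passed in 3, Them6 in 7 and Irs2 in 5 of the 12 fits, with the largest adjusted p, 0.111 without control replicate 2, 0.0976 without control replicate 1 and 0.129 without control replicate 3.

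No member of several other metabolic lists passed. These were 25 cholesterol synthesis genes (median -0.11, 5 with a positive sign), 25 fatty acid oxidation genes (-0.01), 27 glycolysis and hypoxia genes (-0.04), 34 nuclear oxidative phosphorylation genes (0.03, and -0.03 in the 10 libraries) and 7 mitochondrially encoded genes (-0.07). The coactivator Ppargc1a came nearest, with -0.36 ± 0.09 (adjusted p = 0.0718).

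Among secreted signals and immune genes, Cx3cl1 rose and Bmp4, Lgals3, Casp8, Ddx60 and Tnfaip2 fell. Cx3cl1 (ENSMUSG00000031778), the chemokine fractalkine, had levels in CPM of 43.3, 43.3 and 47.2 in control, 64.6, 62.5 and 67.8 with NAM, 51.6, 72.9 and 52.1 with TGFβ and 80.2, 77.0 and 75.6 with both. The log2 change was 0.47 ± 0.09 (adjusted p = 0.0194). Bmp4 (ENSMUSG00000021835), a bone morphogenetic protein, had levels in CPM of 451, 412 and 375 in control, 355, 413 and 342 with NAM, 179, 141 and 163 with TGFβ and 127, 105 and 107 with both. The groups overlapped without TGFβ and stood apart with it, and the log2 change was -0.33 ± 0.07 (adjusted p = 0.0344). Cx3cl1 passed in 8 and Bmp4 in 3 of the 12 fits, with the largest adjusted p, 0.0725 and 0.172, both without control replicate 1. Bmp4 was the only 1 of 12 tested BMP and ID genes to pass (median -0.03), against 0.137% of all tested genes with a lower level.

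Lgals3, galectin-3, fell from 304 ± 5.82 to 275 ± 17.1 CPM without TGFβ and from 125 ± 2.16 to 91.3 ± 6.47 with it (log2 -0.30 ± 0.06, adjusted p = 0.0238). Casp8, an initiator caspase of death receptors, fell by -0.36 ± 0.08 (adjusted p = 0.0452). Tnfaip2, a gene induced by tumor necrosis factor, fell by -0.83 ± 0.19 (adjusted p = 0.0486), and Ddx60, an interferon-induced helicase, by -0.57 ± 0.13 (adjusted p = 0.0476). Tnfaip2 averaged 19.6 CPM in control, 13.0 with NAM, 7.08 with TGFβ and 3.33 with both, the last from 58 reads. Ddx60 missed the threshold without the 2 libraries (-0.53 ± 0.14, adjusted p = 0.0539). Lgals3 passed in 5 of the 12 fits and each of Casp8, Tnfaip2 and Ddx60 in 2, and without 1 library their adjusted p reached 0.115 and 0.158, 0.162 and 0.205, without control replicate 1, NAM replicate 1, control replicate 3 and control replicate 1.

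None of 41 tested genes of the interferon list passed (median -0.04), and Tnfaip2 was the only 1 of 18 NF-κB genes (0.02). Of all tested genes, 0.137% passed with a lower level. The ubiquitin-like protein Isg15 had -0.29 ± 0.09 (adjusted p = 0.277), and -0.11 without the 2 libraries. The summed level of the immune marker list was 183 to 188 CPM in control, 139 to 184 with NAM, 74.4 to 87.0 with TGFβ and 57.8 to 72.0 with both, with 3 of its 10 genes tested and none called. Its part in these results was not tested.

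The remaining calls have other roles. Cdh16 (ENSMUSG00000031881), the kidney-specific cadherin, had levels in CPM of 188, 163 and 157 in control, 229, 208 and 207 with NAM, 57.8, 56.8 and 51.8 with TGFβ and 86.0, 67.4 and 70.5 with both, without overlap in either background. It rose by 0.38 ± 0.08 (adjusted p = 0.0194) and passed in 8 of the 12 fits (adjusted p = 0.0834 without control replicate 3). Cdh16 was the only 1 of 8 tested epithelial junction and keratin genes to pass, against 0.144% of all tested genes with a higher level. Psap, the precursor of the lysosomal saposins, rose by 0.29 ± 0.06 (adjusted p = 0.0384), Poglut1, which glucosylates Notch receptors, by 0.43 ± 0.09 (adjusted p = 0.0194), and Nbdy, a short polypeptide of the mRNA decapping machinery, by 0.56 ± 0.12 (adjusted p = 0.0238). These 3 had their highest level of each background in NAM replicate 3 and in TGFβ+NAM replicate 1. Without these libraries their log2 changes were 0.19, 0.32 and 0.40, and none passed (adjusted p = 0.068, 0.0641 and 0.172).

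Among the larger changes, those of S100g, Adora1, Ctsw and Mustn1, like that of Tnfaip2, were in genes of low level in at least 1 group. S100g (ENSMUSG00000040808), the calcium-binding protein calbindin-D9k, had levels in CPM of 15.4, 15.5 and 15.1 in control, 5.83, 10.9 and 14.4 with NAM, 6.72, 4.25 and 5.16 with TGFβ and 1.41, 0.800 and 0.361 with both. The change was -0.56 ± 0.30 without TGFβ and -2.62 ± 0.46 with it, -1.59 ± 0.28 on average (adjusted p = 0.00852). Without TGFβ the value nearest to control was that of NAM replicate 3, and in the 10 libraries the average was -2.00 ± 0.31. The call was lost with limma-voom (-1.65, adjusted p = 0.0727) and with an additive model (-1.18, adjusted p = 0.0797). Adora1, an adenosine receptor, had levels in CPM of 23.8, 18.8 and 23.6 in control, 17.3, 18.4 and 18.0 with NAM, 1.85, 6.61 and 3.69 with TGFβ and 0.883, 0.160 and 1.26 with both and an average log2 change of -1.36 ± 0.28 (adjusted p = 0.023). That average combined -0.30 ± 0.27 without TGFβ and -2.42 ± 0.49 with it, the latter from 68 reads with TGFβ and 13 with both. Ctsw, a cathepsin known from lymphocytes, had levels in CPM of 0.564, 1.43 and 0.340 in control, 1.31, 3.34 and 2.66 with NAM, 71.2, 74.3 and 65.4 with TGFβ and 88.0, 89.5 and 90.4 with both. Its average, 0.97 ± 0.22 (adjusted p = 0.0384), combined 1.60 ± 0.40 at a low level without TGFβ and 0.34 ± 0.15 at a high level with it. Adora1 passed in 6 and Ctsw in 3 of the 12 fits, with the largest adjusted p, 0.186 without TGFβ replicate 2 and 0.218 without control replicate 3. These 3 genes overlap Ctps2, Mybph and Fibp on the other strand.

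Mustn1, a nuclear protein of muscle and skeleton, had 32 reads over the control libraries and 1 over the NAM libraries, 84 with TGFβ and 44 with both. The ratio of NAM to control was 0.0286, with a 95% counting interval of 0.000703 to 0.171, and that of TGFβ+NAM to TGFβ was 0.492 (0.333 to 0.716). These intervals cover counting error only. The fitted average of -2.83 ± 0.60 (adjusted p = 0.0249) rests on that 1 read, and Mustn1 did not pass in the 10 libraries (adjusted p = 0.068).

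The genes that handle NAM itself did not differ detectably. Nnmt (ENSMUSG00000032271) levels in CPM were 27.6, 33.3 and 30.4 in control, 31.5, 32.5 and 33.1 with NAM, 28.9, 35.7 and 28.5 with TGFβ and 31.8, 26.4 and 28.9 with both. All 4 groups overlapped, and the average log2 change was -0.01 ± 0.11, with a 95% interval of -0.23 to 0.21 (adjusted p = 0.99, exact permutation within backgrounds p = 1, two-sided, smallest possible 0.005). Nampt, the salvage enzyme, had -0.10 ± 0.08 (-0.25 to 0.06). The sirtuin Sirt1 had 0.32 ± 0.21 (-0.12 to 0.76) and the polymerase Parp1 -0.06 ± 0.07 (-0.21 to 0.09). Mat2a, which makes S-adenosyl methionine, had 0.09 ± 0.06 (-0.03 to 0.21), and Ahcy, which clears the product of methyl transfer, -0.40 ± 0.24 (-0.89 to 0.09). Sirt1 and Ahcy averaged under 10 CPM, and their intervals are the widest of these 6 genes.

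None of 18 tested genes of NAM uptake, clearance and salvage passed (median 0.01), nor any of 7 sirtuins (-0.01), 19 genes of ADP-ribosylation (0.06), 28 of the methionine cycle and polyamines (0.06) or 32 methyltransferases of histones and DNA (0.00). Nt5e, the ectoenzyme that makes adenosine and acts on nucleotides outside the cell, had the smallest p of the first list (0.28 ± 0.08, adjusted p = 0.193).

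Of 28 tested p53 targets, 24 had a positive sign (median 0.11), against 6640 of all 13163 tested genes, and none passed. With an unadjusted p under 0.05, 7 were higher and none was lower (25%). In the 10 libraries the median was 0.07 and Cdkn1a passed. Of 35 proliferation genes none passed (-0.02), although 7 were lower and 1 higher at an unadjusted p under 0.05 (22.9%, against 10.0% of all tested genes), among them the marker Mki67 (-0.26 ± 0.08, adjusted p = 0.249). None of 18 senescence and cell cycle inhibitor genes passed (-0.07), whereas in the 10 libraries Cdkn1a was higher, the cyclin Ccnd1 was lower and the median was 0.00. Lists of heat shock (16 tested, -0.08), unfolded protein (21, 0.04) and ATF4 (34, 0.07) stress genes, circadian clock genes (17, 0.05), lysosome and autophagy genes (30, 0.05), tubule transport genes (10, -0.07), tubular injury genes (16, -0.12), secreted inflammatory factors (15, 0.04), nuclear-retained RNAs (9, -0.03) and ribosomal proteins (34, -0.01) had no call. At an unadjusted p under 0.05, 5 secreted factors were higher and 1 lower (40%), and 1 injury gene was higher and 4 lower (31.25%). The ATF4 list had 7 higher and 1 lower (23.5%), and the lysosome and autophagy list 4 higher and 3 lower (23.3%). For the other lists of this paragraph the share was 4.76% to 22.2%. In the 10 libraries Gdf15, a stress-induced cytokine of the ATF4 and secreted factor lists, passed (0.23 ± 0.05, adjusted p = 0.019), as did Spp1 of the injury list.

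**Figure D3:**
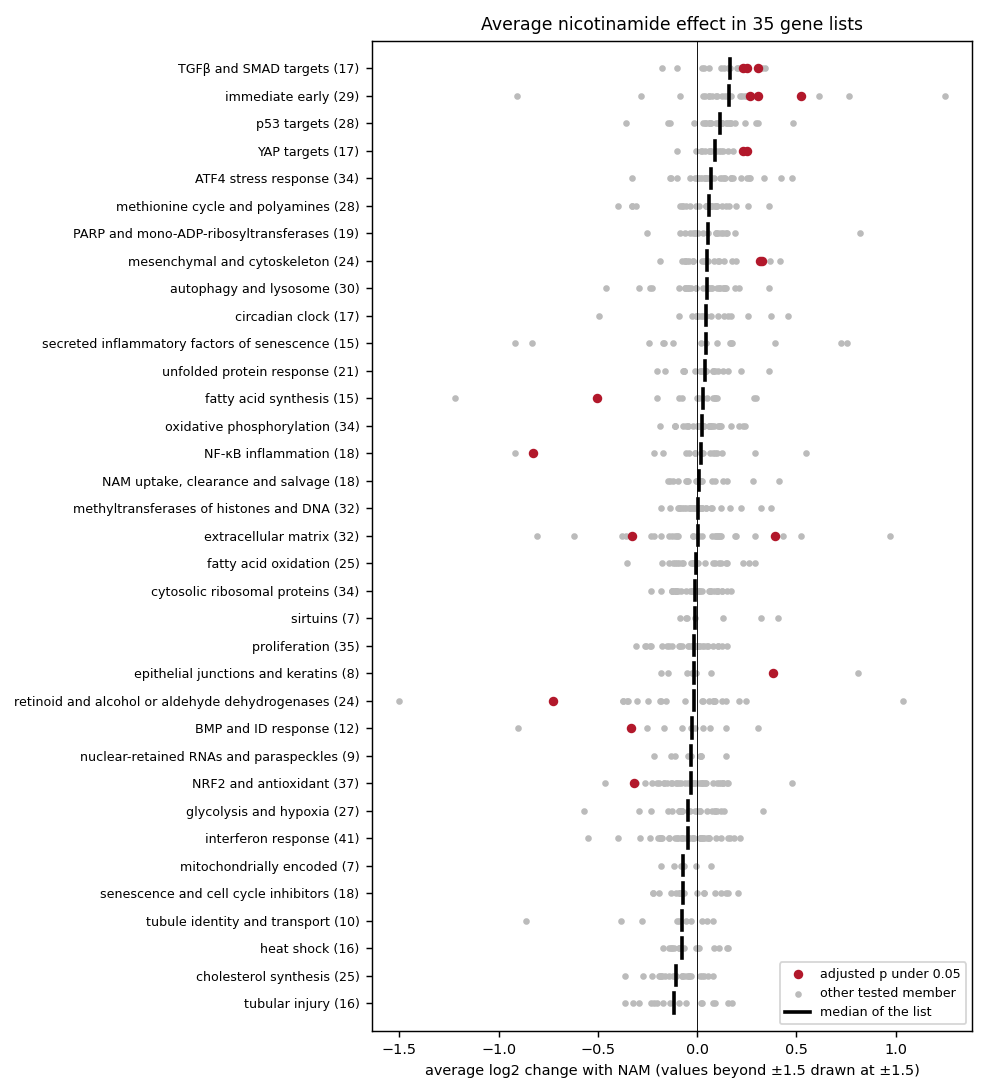
Average log2 change with NAM (horizontal axis) of the tested members of 35 gene lists (rows, number tested in brackets). Red points passed the threshold, grey points did not, and black bars are the list medians, which lie between -0.12 and 0.17.

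Whether the effect of NAM differed between backgrounds was tested as an interaction. No gene passed (0 of 13163 by edgeR, also 0 by DESeq2 and by limma-voom), and 510 had an unadjusted p under 0.05 (3.87%). Of the 37 genes called in the average, 9 had one. Larger changes with TGFβ were fitted by edgeR for Npnt (adjusted p = 0.991), Adora1 (adjusted p = 0.991), S100g (adjusted p = 0.991), Ccn2, Lgals3 and Bmp4, and smaller ones for Ctsw, Mustn1 and Ddx60. Without the 2 libraries, 1 gene passed (0.00746%), CT010467.1, with a difference in log2 change of 0.48 ± 0.08 (adjusted p = 0.00409). It was chosen after its value was seen, and it also passed without TGFβ+NAM replicate 1 alone (0.59, adjusted p = 0.0274).

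**Figure D4:**
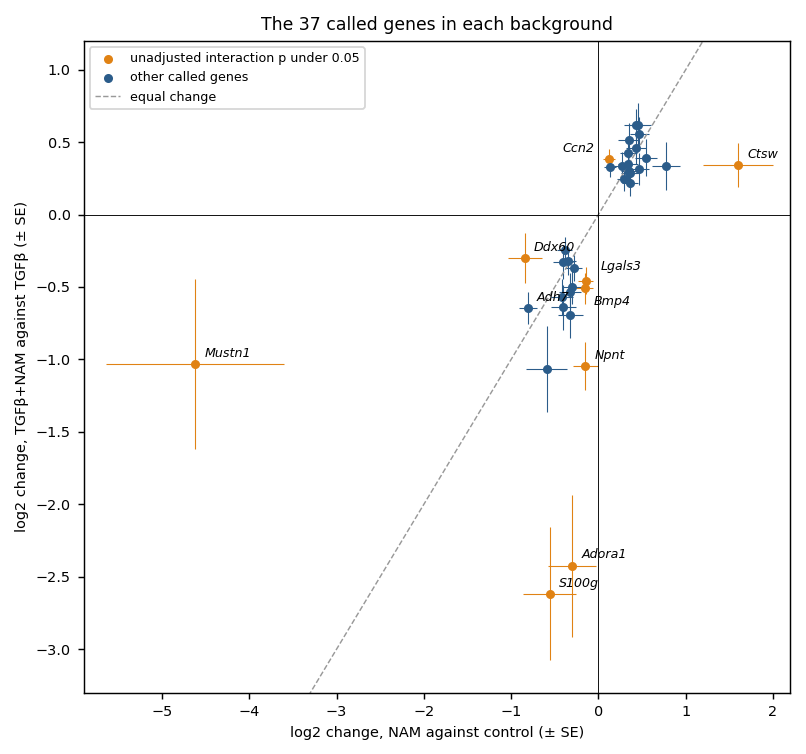
Log2 change of the 37 called genes in NAM against control (horizontal axis) and in TGFβ+NAM against TGFβ (vertical axis), with SE bars and a dashed line of equal change. Orange points have an unadjusted interaction p under 0.05. All points lie in the quadrants of equal sign, which a call on the average of both backgrounds favors. Npnt, Adora1, S100g, Ctsw and Mustn1 lie farthest from the dashed line.

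Leaving out NAM replicate 3 and TGFβ+NAM replicate 1 added 35 calls, of which the 5 with the smallest p are Spp1, Lgals1, Cdkn1a, Prnp and Mt2. Spp1 (ENSMUSG00000029304), osteopontin, had levels in CPM of 545, 546 and 573 in control, 479.9, 434 and 567 with NAM, 310.3, 303 and 334 with TGFβ and 317, 227 and 227 with both. In each background the NAM library that stood apart lay within the range of the controls, and the other NAM libraries lay below it. The log2 change was -0.23 ± 0.08 with 12 libraries (adjusted p = 0.269) and -0.38 ± 0.06 with 10 (adjusted p = 6.61e-05).

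Cdkn1a (ENSMUSG00000023067), the cell cycle inhibitor p21 and a p53 target, had levels in CPM of 1422, 1495 and 1422 in control, 1649, 1585 and 1322 with NAM, 1956, 2141 and 1804 with TGFβ and 1816, 2618 and 2452 with both. Its change was 0.15 ± 0.07 with 12 libraries (adjusted p = 0.496) and 0.26 ± 0.05 with 10 (adjusted p = 0.00171). Lgals1, galectin-1, moved from -0.25 ± 0.07 to -0.33 ± 0.06 (adjusted p = 0.000711), and Mt2, a metallothionein, from -0.18 ± 0.07 to -0.27 ± 0.05 (adjusted p = 0.00464). Prnp, the prion protein gene, was close to the threshold with 12 libraries (0.27 ± 0.06, adjusted p = 0.0518) and had 0.32 ± 0.06 with 10 (adjusted p = 0.00246). TGFβ+NAM against TGFβ gave 34 calls without the 2 libraries (0.254%), 12 higher (0.0895%) and 22 lower (0.164%), and NAM against control gave 1 (0.00746%).

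**Figure D5:**
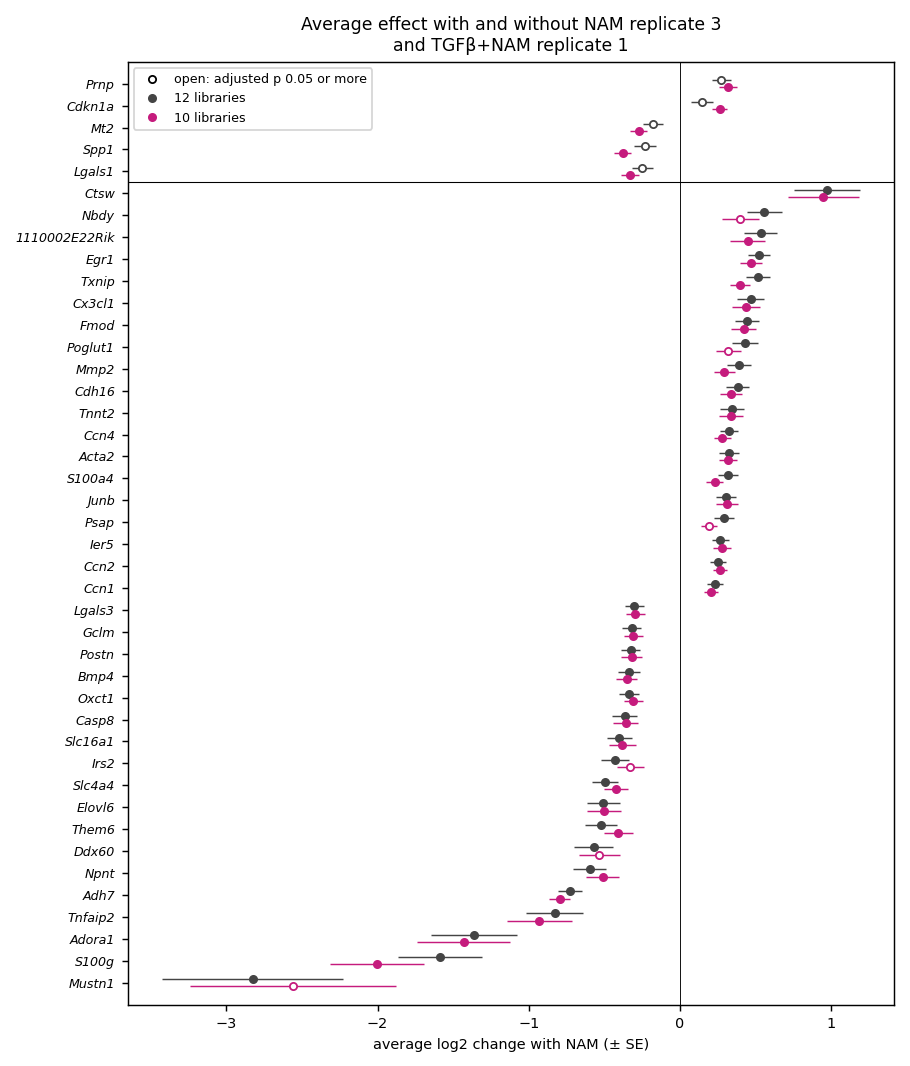
Average log2 change with NAM and its SE for the 37 called genes (below the line) and 5 genes called only in the 10 libraries (above it), fitted with 12 libraries (grey) and with 10, leaving out TGFβ+NAM replicate 1 and NAM replicate 3 (pink). Open circles did not pass the threshold, which is the case for Nbdy, Poglut1, Psap, Irs2, Ddx60 and Mustn1 in the 10 libraries, and no sign differs between the 2 fits.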

How the data were processed

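Polyadenylated RNA was read with QuantSeq 3′ libraries. Per the labels and the submitters' processing notes, the authors used STAR and HTSeq and deposited raw counts per gene. Versions, strand setting and annotation are not given in the sources used here, and the notes name GRCh38 although the identifiers are mouse. Of 55487 identifiers, 55141 were matched to symbols of GENCODE M21 (GRCm38). Of the 5 special rows, 2 held reads: reads outside genes (22.8% to 27.3% of a library) and ambiguous reads (0.655% to 0.779%), both left out. The 12 libraries were fitted in edgeR 4.0.16 (R 4.3.3) with TMM factors, filterByExpr at a minimum count of 10 and 1 term per group. Two-sided quasi-likelihood tests were adjusted by Benjamini-Hochberg over 13163 genes, with a threshold of 0.05. Log2 values are given ± SE. Replicates differed by more than sampling noise, so none was counted as a duplicate.

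Alternatives were DESeq2 1.42.0, limma-voom (limma 3.58.1), other scalings and filters, all 18 libraries, a robust dispersion, an additive model, a replicate block and leaving out libraries. The members and the 42 lists were chosen with earlier results of these data known. Named were 6 enzymes around NAM, the called genes above 5 CPM of largest change (at most 15 each way), up to 3 list members of smallest p, up to 5 called genes each way per background, and up to 5 calls lost or gained without the 2 libraries. Lists were described by counts and medians, and markers such as Col1a1, Csf1r and Synpo were added as values. Srebf2, Trmt10a, Adh5, Fn1, Gstm1, Fosb, Nr4a1 and 1110002E22Rik are outside this rule and were chosen after their values were seen. Steps were tested on simulated data. Values of 3 list members are not reported here.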

Additional observations from a re-analysis of the deposited data

Results flagged for a closer look

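The share of reads that were ambiguous between genes, which no comparison uses, lay above every library of the matching control group in 4 of the 6 NAM libraries. It was 0.695%, 0.682% and 0.748% in NAM replicates 1, 2 and 3, against 0.655% to 0.671% in control. In TGFβ+NAM replicate 1 it was 0.779%, against 0.678% to 0.717% with TGFβ. The other TGFβ+NAM libraries, replicates 2 and 3, lay below that range. NAM replicate 3 and TGFβ+NAM replicate 1, the libraries that stood apart, had the highest shares.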

How the results depend on the processing

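No called gene changed sign under any alternative. In the average, 37 calls became 87 with DESeq2, 110 with no low-count filter and 66 without the 2 libraries that stood apart, and leaving out 1 library gave 5 to 50. The other alternatives gave 31 to 50 calls, and Adh7, Egr1, Slc4a4 and Txnip passed in all 23. The split of calls moved: 19 higher and 18 lower became 33 and 54 with DESeq2, 47 and 63 with no filter, 29 and 37 without the 2 libraries and 19 and 12 with an additive model. In NAM against control, 0 higher and 1 lower became 7 and 4 with DESeq2 and 11 and 9 with no filter, and in TGFβ+NAM against TGFβ, 3 higher and 6 lower became 2 and 1 with limma-voom. Calls were lost with limma-voom for 7 genes (Adora1, Ctsw, Ddx60, Mustn1, S100g, Tnfaip2 and Tnnt2), with an additive model for 9 (Adora1, Bmp4, Ctsw, Ddx60, Lgals3, Mustn1, Npnt, S100g and Tnfaip2), with all 18 libraries for 5 (1110002E22Rik, Bmp4, Ctsw, Ddx60 and Tnnt2) and with library totals for 3 (Casp8, Ddx60 and Tnfaip2). The medians of the lists of NAM handling, methionine cycle, unfolded protein, fatty acid synthesis, oxidative phosphorylation and NF-κB genes, at most 0.06, turned negative without the 2 libraries, at lowest -0.05. NAM against control gave 1 call except with DESeq2 (11) and with no filter (20), and 1 to 1 when leaving out 1 library. TGFβ+NAM against TGFβ gave 9 calls, and 42 with DESeq2, 3 with limma-voom, 37 with no filter, 34 without the 2 libraries, 15 with a robust dispersion and 0 to 15 when leaving out 1 library, with 0 without TGFβ+NAM replicate 2. The interaction gave 0 calls, 1 without the 2 libraries and 0 to 1 when leaving out 1 library. The cause was not tested.

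With the replicate number as a block, the average gave 33 calls, 31 of them among the 37, NAM against control 1, TGFβ+NAM against TGFβ 4 and the interaction 0. Whether the numbers pair the libraries was not tested. Same-numbered libraries had correlations of their deviations of -0.107 to 0.0794, none of 18 pairs was over 0.1, and 6 of 12 libraries correlated best with their own number. Differently numbered libraries of different groups had -0.134 to 0.18, the highest between NAM replicate 3 and TGFβ+NAM replicate 1. Depth of 4171170 to 7717626 reads limits genes of a few CPM. The median SE over all tested genes was 0.13 on the log2 scale.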

Other observations

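The called genes were unevenly spread over chromosomes (GRCm38, GENCODE M21). Chromosome 3 held 10 of the 37, or 27.0%, against 5.78% of the tested genes, namely Adh7, Txnip, Npnt, Gclm, Postn, Slc16a1, S100a4, Elovl6, Ccn1 and the unnamed gene 1110002E22Rik. Of these, 4 rose and 6 fell. Chromosome 8 held 6 of the 37 (16.2%, against 5.37% of the tested genes). At an unadjusted p under 0.05, chromosome 3 had 11.2% of its tested genes and chromosome 8 had 7.50%, against 10.0% overall. Of the genes tested in the 12 libraries that passed without the 2 libraries that stood apart, 13 of 65 were on chromosome 3. This count was made after the calls were seen and was not tested.

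Adh7, the gene of smallest p, and 1110002E22Rik, which rose by 0.53 ± 0.11 (adjusted p = 0.02), lie 136253 bases apart on chromosome 3 and moved in opposite directions. Levels of 1110002E22Rik in CPM were 22.8, 19.7 and 22.4 in control, 25.5, 28.4 and 34.7 with NAM, 47.4, 34.8 and 50.1 with TGFβ and 71.0, 66.6 and 64.4 with both, without overlap in either background. Its call was lost in 5 of the 12 fits that each left out 1 library (largest adjusted p = 0.0859, without control replicate 2) and with all 18 libraries in the fit (adjusted p = 0.127). Among the 15 other tested genes within 1 Mb of either, none passed, and 1 had an unadjusted p under 0.05, the tRNA methyltransferase Trmt10a between them (-0.22 ± 0.08). The neighboring dehydrogenase gene Adh5 had 0.13 ± 0.07 (adjusted p = 0.593).

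Several genes had an average that rested on the 2 libraries that stood apart. The log2 change of Thbs1 went from 0.43 to 0.08, of the cell cycle inhibitor Cdkn2a from -0.22 to -0.03, of the kidney transcription factor Pax2 from -0.28 to -0.09 and of the sterol regulator Srebf2 from -0.23 to -0.06. None of these passed with 12 libraries. In the opposite direction, the cyclin Ccnd1 went from -0.19 to -0.28 and passed in the 10 libraries (adjusted p = 0.00948).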
